A study of Mus musculus with 6 samples.

Results

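The mRNAs of 9 transcription factors that act in the oocyte were followed in fully grown mouse oocytes with and without NAT10: Sohlh1, Sohlh2, Lhx8, Figla, Nobox, Foxo3, Taf4b, Tbpl2 and Bnc1. They were taken by symbol from a table of 55291 gene symbols, and all 9 were found. The 3 Nat10 cKO libraries came from females carrying Gdf9-cre and a conditional Nat10 knockout, and the 3 WT libraries from wild-type females. Gdf9-cre acts in oocytes from the primordial follicle onward, so the surrounding somatic cells keep the gene; whether WT females carried a floxed allele or Cre is not given in the labels. Females were described as mature, with no age. Each library was made by Smart-seq2, which amplifies polyadenylated RNA from few cells, and pooled 10 oocytes, taken after PMSG, a gonadotropin that makes follicles grow (32 to 48 h in the series' design text, 36 to 48 h in the sample protocols). Nothing in the labels says that the pools came from separate females, so p-values measure the spread between these libraries, which may be technical. NAT10 acetylates cytidine in RNA, and the series' title asks about its part in translation during meiotic maturation; mRNA levels were what the table held.

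These factors form a cascade that sets up and sustains the oocyte. SOHLH1 and SOHLH2 are basic helix-loop-helix (bHLH) proteins that, with the LIM homeodomain protein LHX8, act early, as germ cells enter follicles and begin to grow. FIGLA, another bHLH protein, switches on the zona pellucida genes by binding E-boxes, and the homeodomain protein NOBOX activates growth genes such as Gdf9. FOXO3 keeps primordial follicles dormant and is shut out of the nucleus when growth starts. TAF4B is a gonadal subunit of the general factor TFIID, TBPL2 takes the place of the TATA-binding protein TBP in growing mouse oocytes, and basonuclin 1 (BNC1) is a zinc finger protein of germ cells and epithelia.

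Of the 8 members with a RefSeq promoter entry (GRCm38.p6; Taf4b has no entry), the 250 bases before the annotated start are shown for Nobox, Figla, Sohlh1, Tbpl2 and Bnc1, whose windows hold no exon bases of the gene itself in GENCODE M21. The windows are chr6:43309555-43309804 on the minus strand for Nobox, chr6:86016941-86017190 on the plus strand for Figla, chr2:25847249-25847498 on the minus strand for Sohlh1, chr2:24096596-24096845 on the minus strand for Tbpl2 and chr7:81992300-81992549 on the minus strand for Bnc1. They are printed 5′ to 3′ along the gene, with each E-box (CANNTG, which includes CAGGTG) in capitals. The start used is RefSeq's and need not be the one used in oocytes. For Figla the 2 annotations differ: the GENCODE gene begins at 86016171, so this window lies inside it and not before its start.
Nobox: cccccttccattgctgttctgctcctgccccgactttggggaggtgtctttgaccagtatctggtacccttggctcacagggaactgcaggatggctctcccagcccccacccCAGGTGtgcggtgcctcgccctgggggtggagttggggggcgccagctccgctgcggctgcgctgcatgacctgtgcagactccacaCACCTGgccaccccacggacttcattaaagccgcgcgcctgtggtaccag
Figla: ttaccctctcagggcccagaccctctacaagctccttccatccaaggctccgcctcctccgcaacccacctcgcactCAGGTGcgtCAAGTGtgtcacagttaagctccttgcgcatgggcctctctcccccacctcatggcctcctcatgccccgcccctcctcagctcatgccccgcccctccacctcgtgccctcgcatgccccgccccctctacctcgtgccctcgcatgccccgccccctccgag
Sohlh1: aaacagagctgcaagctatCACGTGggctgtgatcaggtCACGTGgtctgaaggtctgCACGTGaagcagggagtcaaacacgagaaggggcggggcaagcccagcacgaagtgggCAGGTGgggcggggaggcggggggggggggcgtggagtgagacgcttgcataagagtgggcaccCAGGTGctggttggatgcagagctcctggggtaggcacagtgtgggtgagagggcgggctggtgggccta
Tbpl2: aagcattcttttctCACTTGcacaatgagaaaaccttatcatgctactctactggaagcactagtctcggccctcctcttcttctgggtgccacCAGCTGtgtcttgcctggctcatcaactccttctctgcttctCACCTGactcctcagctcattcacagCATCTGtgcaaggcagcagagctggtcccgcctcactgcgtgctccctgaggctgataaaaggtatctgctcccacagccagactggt
Bnc1: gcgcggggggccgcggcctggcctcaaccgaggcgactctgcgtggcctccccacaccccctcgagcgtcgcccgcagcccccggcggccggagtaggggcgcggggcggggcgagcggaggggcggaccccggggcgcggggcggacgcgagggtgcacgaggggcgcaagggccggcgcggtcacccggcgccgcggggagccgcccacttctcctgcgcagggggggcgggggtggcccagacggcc

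CANNTG occurred in 5 of the 8 windows (Nobox, Figla, Sohlh1, Sohlh2 and Tbpl2) and in 66.2% of 32851 RefSeq promoter windows of the same length, read on both strands. CAGGTG occurred in 4 of the 8 and in 17.2% of all windows. The Nobox window held it 137 and 50 bases before the start, the Figla window at 173, the Sohlh1 window at 134 and 70, and the Tbpl2 window at 114, counted to the first base of the match. Sohlh1 also held CACGTG 3 times, at 231, 211 and 192 bases before the start. The homeodomain letters TAATTA, the NOBOX letters TAATTG, the TATA-box letters TATAAA and the FOXO letters GTAAACA were in 0 of the 8 windows, against 4.84%, 7.17%, 12.4% and 3.17% of all windows. The Bnc1 window was 83.6% G and C, against a median of 52.4% over all windows, and 248 of its bases lie in annotated exons of 4833418N17Rik. The windows of Foxo3 and Lhx8, which have no E-box either, were 76.4% and 46.0% G and C. E-box letters were in the windows of Nobox, Figla, Sohlh1 and Tbpl2, called higher below, and of Sohlh2, not called. The windows of Lhx8, called higher, and of Bnc1 and Foxo3, called lower, had none. Whether the letters go with the direction of change was not tested. A match describes letters and was not tested as a binding site.

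The libraries held 47.4 to 74.1 M reads in the Nat10 cKO group and 33.5 to 65.5 M in the WT group. Levels are given as CPM, reads of a gene scaled to a common library total, after TMM scaling, which assumes that most genes do not differ between libraries. Nat10 itself had 5.72, 5.97 and 6.32 CPM in Nat10 cKO oocytes and 42.1, 50.1 and 39.3 CPM in WT oocytes, with no overlap (log2 change -2.67, limma adjusted p = 4.29e-08). The 10 oocyte marker genes checked, Gdf9 and the zona genes among them, summed to 26542 to 31300 CPM in Nat10 cKO and 22083 to 22835 CPM in WT libraries. The 14 granulosa markers summed to 394 to 436 CPM in Nat10 cKO and 416 to 469 CPM in WT libraries, and the 7 blood markers to 34.9 to 35.4 CPM in Nat10 cKO and 43.9 to 50.0 CPM in WT libraries. The 9 markers of theca, stroma and endothelium summed to 81.2 to 90.9 CPM in Nat10 cKO and 78.4 to 86.9 CPM in WT libraries. Serpine2 carried most of the granulosa sum, with 298 CPM in Nat10 cKO and 322 CPM in WT libraries on average. Of 12 granulosa markers tested, Inha was called higher (5.51 and 2.00 CPM on average in Nat10 cKO and WT libraries) and Inhba (0.594 and 1.59 CPM) and Cyp19a1 (41.1 and 52.1 CPM) lower. Of 5 theca, stroma and endothelium markers tested, Pecam1 was called higher and Myh11 and Cyp17a1 lower, and of 3 blood markers C1qb was lower. Of the 10 oocyte markers, 6 were called higher, Ddx4 with the largest change (log2 1.28), and Ooep and Dppa3 lower. No marker was at 0 in every library, but defining genes were near it: the granulosa gene Foxl2 averaged 0.122 and 0.0399 CPM and the leukocyte gene Ptprc 0.00891 and 0.0412 CPM in Nat10 cKO and WT libraries. The part of these cells in the results below was not tested.

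Under TMM scaling, 5 of the 9 factors, Sohlh1 among them, were called higher and 2 lower in Nat10 cKO oocytes (limma, Benjamini-Hochberg adjusted p under 0.05 over 18353 tested genes). Nobox, Tbpl2, Lhx8, Figla and Sohlh1 were higher, Bnc1 and Foxo3 were lower, and Sohlh2 and Taf4b did not pass. Across all tested genes, 17.4% were called higher and 17.6% lower, 35.0% in all, so a call by itself is common in these oocytes. The median log2 change was 0.39 over the 9 factors, Sohlh1 included, and 0.00 over all genes. The 2 genotypes' libraries did not overlap for 7 of the 9 factors, Sohlh1 among them, and for 48.3% of all tested genes. All 9 passed the filter on low values, but Sohlh1 would not have passed on its WT libraries alone. It also needed libraries of the Nat10 cKO group, where it was higher. Its call, its separation of the genotypes and its place in the median are therefore given as a description. Among the 8 others, 4 factors were called higher and 2 lower. In pools of oocytes, fewer cells with an mRNA and less of it per cell cannot be told apart.

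**Figure D1:**
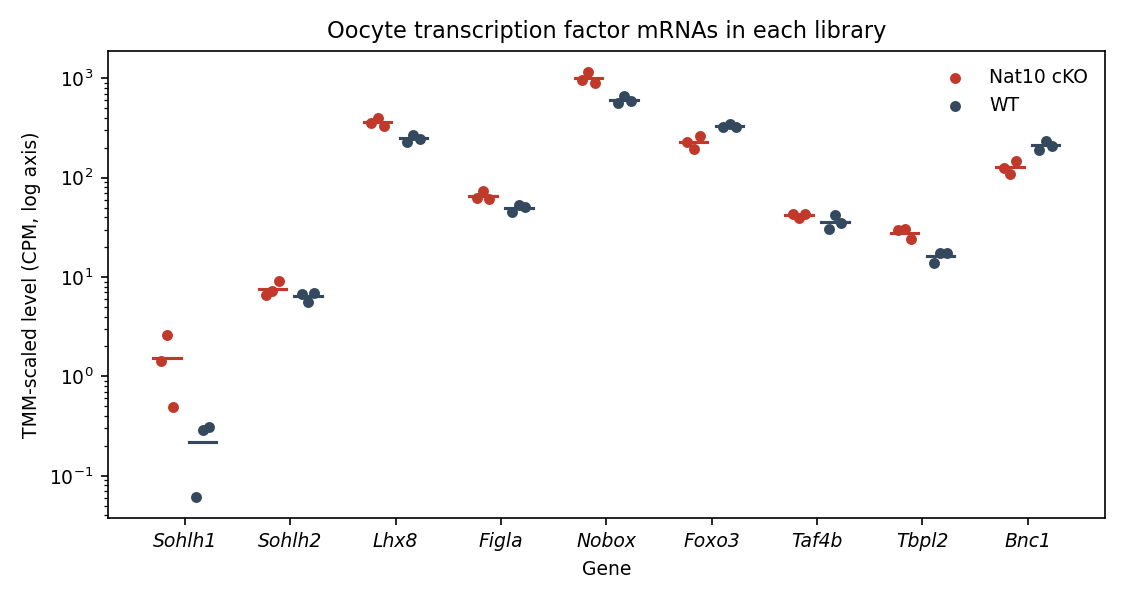
TMM-scaled level of each factor in CPM (log axis), with 1 point per library and a bar at the mean of 3 libraries, Nat10 cKO left of WT. Nobox is the most abundant in both genotypes, and the genotypes overlap for Sohlh2 and Taf4b.

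The early factors were measured at very different depths. Sohlh1 (chromosome 2, 25842995 to 25847248, GRCm38) had 108, 124 and 36 reads in the Nat10 cKO libraries and 2, 10 and 20 reads in the WT libraries. These correspond to 1.44, 2.61 and 0.498 CPM in Nat10 cKO and 0.0618, 0.287 and 0.311 CPM in WT oocytes. All Nat10 cKO values lie above all WT values, but Nat10 cKO replicate 3 is close to the WT libraries, and the gene is barely expressed at this stage. The difference was 0.96 on the log2(CPM + 1) scale (SE 0.243), a scale that understates changes this low: it was 2.20 with a pseudocount of 0.1 and 2.67 in edgeR. In the fit with no filter on low values, over 32265 genes, the limma adjusted p of Sohlh1 was 0.0204. The 268 reads summed over Nat10 cKO libraries and 32 summed over WT libraries give 5.79 times the share of reads in Nat10 cKO (95% exact binomial interval 4.0 to 8.64, counting error only).

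Sohlh2, the partner of Sohlh1 (chromosome 3, 55182028 to 55209957), had 6.63, 7.25 and 9.07 CPM in Nat10 cKO and 6.74, 5.63 and 6.90 CPM in WT oocytes. The genotypes overlap, and the log2 change of 0.22 (SE 0.156, limma adjusted p = 0.307) did not pass. Lhx8 (chromosome 3, 154306294 to 154330659) stood at 355, 399 and 328 CPM in Nat10 cKO and 230.3, 271 and 247 CPM in WT oocytes. Every Nat10 cKO library exceeds every WT library for Lhx8. Lhx8 rose by 0.53 (log2; SE 0.0965; adjusted p = 0.00119, limma), or 1.45-fold on the means. The differences between the changes of these early factors were not tested.

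The zona activator Figla (chromosome 6, 86016171 to 86020996) had 62.1, 73.7 and 60.9 CPM in Nat10 cKO and 45.0, 52.6 and 51.1 CPM in WT oocytes. The genotypes do not overlap, with Nat10 cKO replicate 2 highest. Its change was the smallest of the calls, at 0.39 in log2 (SE 0.108; adjusted p = 0.0125, limma). The call was lost without WT replicate 1 (change 0.33, adjusted p = 0.0587) and without Nat10 cKO replicate 2 (change 0.31, adjusted p = 0.0549).

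Nobox (chromosome 6, 43303674 to 43309554), the activator of oocyte growth genes, was the most abundant of the 9. It had 959.6, 1155 and 890.0 CPM in Nat10 cKO and 568, 660.3 and 591 CPM in WT oocytes, from 54951 to 71795 reads per Nat10 cKO library and 18393 to 38019 reads per WT library. The lowest Nat10 cKO library lies well above the highest WT library. Nobox rose 1.65-fold on the means, by 0.72 (log2; SE 0.102; adjusted p = 0.000264, limma). Per kilobase of exon it ranked 72 of 17899 genes in Nat10 cKO and 150 in WT oocytes.

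Foxo3 (chromosome 10, 42181841 to 42276755), the guard of primordial follicles, was among the factors that fell. Its levels were 227, 193 and 265 CPM in Nat10 cKO and 322, 344 and 326 CPM in WT oocytes. All Nat10 cKO libraries are below all WT libraries, with Nat10 cKO replicate 2 lowest. The log2 change was -0.54 (SE 0.106, limma adjusted p = 0.00184), a mean 0.690 times that of WT oocytes.

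Tbpl2 and Taf4b encode germ cell forms of the general transcription machinery. Tbpl2 (chromosome 2, 24071721 to 24096595) had 29.7, 30.1 and 24.1 CPM in Nat10 cKO and 13.8, 17.6 and 17.5 CPM in WT oocytes. The genotypes do not overlap. Tbpl2 rose 1.72-fold on the means, by 0.75 (log2; SE 0.136; adjusted p = 0.00119, limma). Taf4b (chromosome 18, 14783245 to 14900359) had 43.4, 39.2 and 43.4 CPM in Nat10 cKO and 30.1, 42.3 and 34.7 CPM in WT oocytes. WT replicate 2 reaches the Nat10 cKO range, and the change of 0.24 (SE 0.125, limma adjusted p = 0.154) did not pass. Without WT replicate 2 it passed, at 0.38 (adjusted p = 0.0222).

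Bnc1 (chromosome 7, 81966672 to 81992292), encoding the germ cell basonuclin, had the largest fall of the 9. It had 126, 108 and 146 CPM in Nat10 cKO and 189.6, 232 and 209.6 CPM in WT oocytes. No Nat10 cKO library reaches the lowest WT library. The log2 change was -0.73 (SE 0.115, limma adjusted p = 0.000458), a mean 0.602 times that of WT oocytes. Of its 4646 exon bases, 98 overlap 4833418N17Rik on the opposite strand, which had 0 or 1 read per library.

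By size, these changes were in the upper part of the transcriptome but not at its edge. The share of tested genes with a smaller absolute log2 change was 94.9% for Sohlh1, 90.1% for Tbpl2, 89.7% for Bnc1, 89.2% for Nobox, 81.5% for Foxo3, 80.6% for Lhx8 and 69.3% for Figla. It was 49.4% for Taf4b and 45.1% for Sohlh2.

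Calls among these genes depended on how libraries were scaled. The deposited values carry a factor per library whose basis is not stated. They were also used without division by each library's own total. These deposited totals were 43.0 to 68.2 M in Nat10 cKO and 33.5 to 61.9 M in WT libraries. The part of the factor and of the totals in the calls was not tested. ERCC spike-in RNA was added for calibration per the series' design text, and whether the factor is that calibration is not known; if it is, the deposited values are relative to spike-in and not to total mRNA. As deposited, 1 factor was called higher and 0 lower (limma), against 6.58% and 1.39% of all tested genes. When each library's shares of reads were multiplied by its factor, 2 were called higher and 2 lower, against 5.60% and 16.5% of all genes. These scalings moved the median of all genes by 0.24 and -0.15 on the log2 scale. Relative to that median, Nobox changed by 0.84 as deposited and by 0.65 on the shares, and Tbpl2 by 0.84 and 0.68. Bnc1 changed by -0.62 as deposited and by -0.80 on the shares, and Foxo3 by -0.43 and -0.61. The sign of the change, before and after this adjustment, was the same under all 3 scalings for each of the 9 factors. The 1 factor called as deposited was Sohlh1, which was also 1 of the 2 called higher on the shares, with the filter limit given above. As deposited Nobox missed the threshold (limma adjusted p = 0.0648), as did Tbpl2 (0.0735), Lhx8 (0.165), Figla (0.278), Bnc1 (0.624) and Foxo3 (0.826). On the shares, Nobox, Foxo3 and Bnc1 passed (0.0281, 0.00158 and 0.000140), and Tbpl2, Lhx8 and Figla did not (0.127, 0.264 and 0.646). In the deposited values themselves, Nobox still separated the genotypes, with 66051, 49889.7 and 60012 in Nat10 cKO and 18393, 31740.0 and 35936 in WT libraries. Those of Foxo3 overlapped, at 15637, 8339 and 17836 in Nat10 cKO and 10434, 16528 and 19824 in WT libraries.

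**Figure D2:**
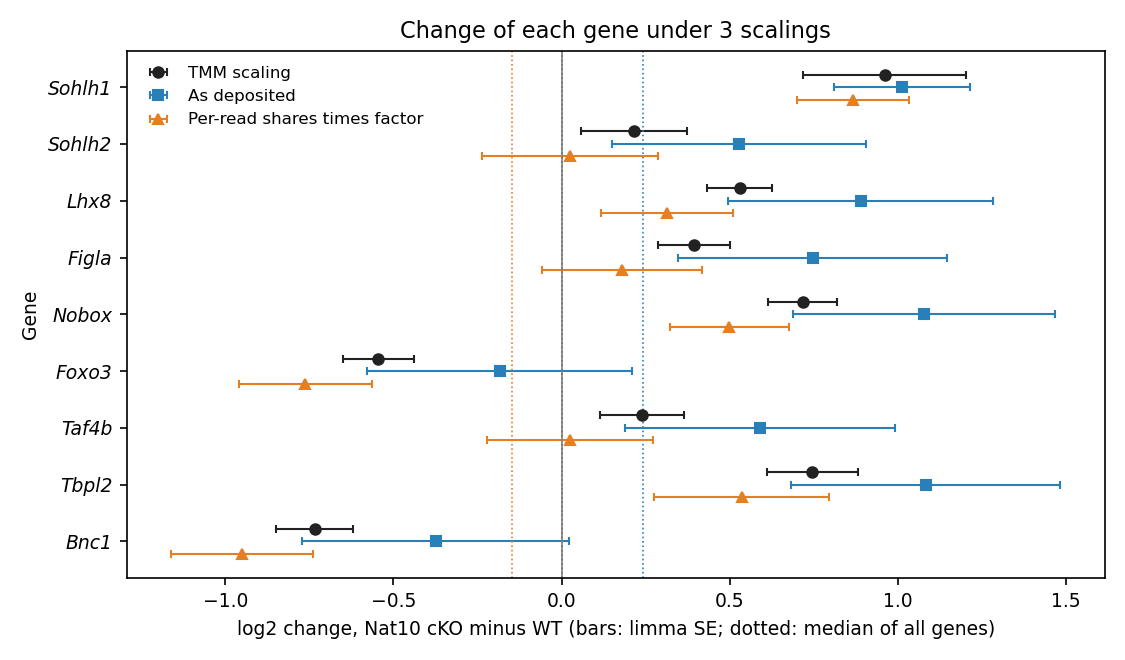
log2 change of each factor, Nat10 cKO minus WT, under TMM scaling, as deposited and as per-read shares times the deposited factor; bars are limma SE and dotted lines the median of all genes under each scaling. The order of the factors is similar under each scaling, with Bnc1 lowest at -0.73, -0.37 and -0.95.

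Levels were next compared between the factors, as TMM-scaled CPM per kilobase of annotated exon. In Nat10 cKO oocytes the order was Nobox (498 ± 68.2), Lhx8 (142 ± 14.2), Figla (78.4 ± 8.48), Foxo3 (30.1 ± 4.73), Bnc1 (27.3 ± 4.13), Tbpl2 (20.3 ± 2.41), Taf4b (8.15 ± 0.475), Sohlh2 (3.24 ± 0.537) and Sohlh1 (1.18 ± 0.819; SD, n = 3 throughout). In WT oocytes it was Nobox (301 ± 23.8), Lhx8 (98.5 ± 8.04), Figla (59.3 ± 4.79), Bnc1 (45.3 ± 4.55), Foxo3 (43.7 ± 1.52), Tbpl2 (11.8 ± 1.57), Taf4b (6.94 ± 1.20), Sohlh2 (2.72 ± 0.293) and Sohlh1 (0.171 ± 0.107). Foxo3 and Bnc1 are neighbours whose means differ by less than the SD of Bnc1 in either genotype. Annotated exon length covers all isoforms, so a gene with exons that oocytes do not use reads low on this scale.

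As a share of the 9 factors' summed level per kilobase, which does not depend on the scaling of a library, Nobox made up 61.0, 63.6 and 59.7% in Nat10 cKO and 53.4, 53.2 and 52.2% in WT oocytes. Foxo3 made up 3.79 ± 0.946% in Nat10 cKO and 7.68 ± 0.343% in WT oocytes, and Bnc1 3.43 ± 0.838% and 7.94 ± 0.202% (SD, n = 3). The share of Lhx8 was 17.6 ± 0.266% in Nat10 cKO and 17.3 ± 0.0830% in WT oocytes. Figla, called higher, made up 9.70 ± 0.174% in Nat10 cKO and 10.4 ± 0.394% in WT oocytes. A share depends on the other factors in the sum, so a lower or level share need not mean a lower or level mRNA. The summed TMM-scaled CPM of all 9 was 1811, 2007 and 1766 in Nat10 cKO and 1406, 1625 and 1484 in WT libraries. With Nobox taken out it was 852, 853 and 876 CPM in Nat10 cKO and 838, 965 and 893 CPM in WT libraries, which overlap.

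**Figure D3:**
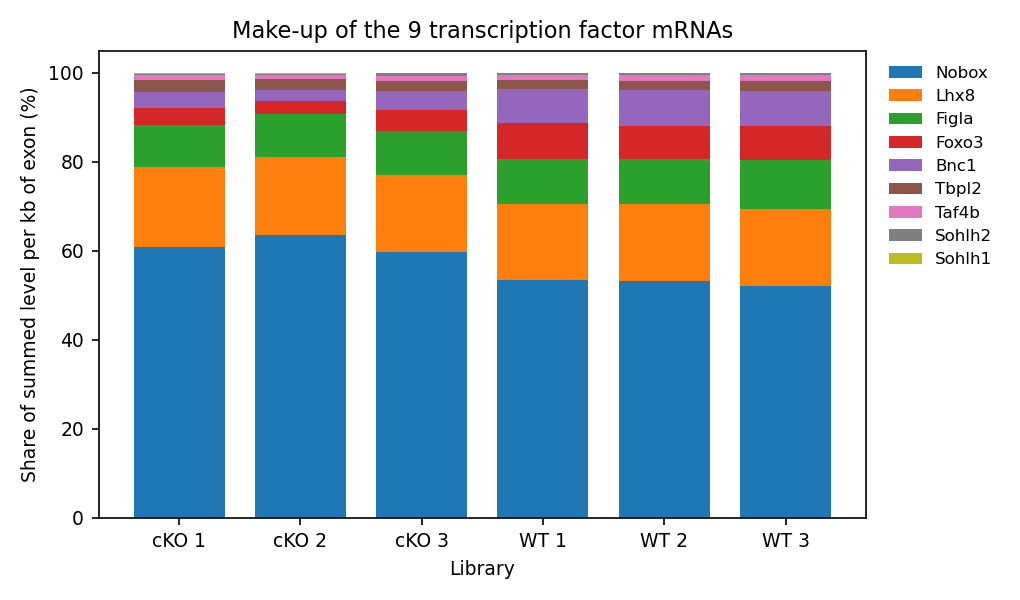
Share of the 9 factors' summed level per kilobase of exon (%) in each library, Nat10 cKO left of WT. Nobox takes 59.7 to 63.6% in Nat10 cKO and 52.2 to 53.4% in WT libraries, while Foxo3, Bnc1 and Figla take less in Nat10 cKO.

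Each factor was then set against a relative or partner within the same library, a ratio that the scaling cannot change. Of 7 pairs chosen, Sohlh1/Sohlh2 was left out for its low reads, and 6 were compared by an exact two-sided permutation test over 20 assignments, in which 0.1 is the smallest possible p. The ratio of Tbpl2 to Tbp, the somatic form, was 1.86, 1.77 and 1.71 in Nat10 cKO and 0.917, 1.34 and 1.21 in WT oocytes, per kilobase. The genotypes do not overlap, and the log2 ratio was 0.64 higher in Nat10 cKO (exact permutation p = 0.1, 0.12 adjusted over the 6 pairs). Tbp had a log2 change of 0.14 (limma adjusted p = 0.283), and 2582 of its 13576 exon bases overlap Pdcd2 on the other strand, so its reads are uncertain.

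Taf4b over Taf4, its widely expressed counterpart in TFIID, was 0.605, 0.685 and 0.487 in Nat10 cKO and 0.290, 0.419 and 0.353 in WT oocytes, a log2 difference of 0.75 with no overlap (exact permutation p = 0.1, adjusted 0.12). Taf4 itself fell, at 65.2 ± 14.3 CPM in Nat10 cKO and 90.7 ± 2.26 CPM in WT oocytes (SD, n = 3; limma log2 change -0.49, adjusted p = 0.0110). The ratio of Bnc1 to its paralog Bnc2 was 4.04, 3.42 and 4.23 in Nat10 cKO and 4.79, 6.09 and 5.47 in WT oocytes, a log2 difference of -0.48 without overlap (exact permutation p = 0.1, adjusted 0.12). Both genes were called lower in Nat10 cKO, Bnc2 at -0.25 (limma adjusted p = 0.0483), though Bnc2 had a change of 0.10 as deposited. Bnc2 missed the threshold without a filter (limma adjusted p = 0.155), when scaled by library size alone (0.0800) or by median-of-ratios factors (0.0549), and in 5 of 6 fits that left out 1 library, all but that without Nat10 cKO replicate 3 (0.0293 to 0.210). It also missed with the replicate number as a block, as deposited and on the shares (limma adjusted p = 0.0881, 0.908 and 0.144). Foxo3 and Foxo1 kept close to a ratio of 1, at 1.06, 1.02 and 0.965 in Nat10 cKO and 1.02, 1.07 and 1.12 in WT oocytes, which overlap (difference -0.08, exact permutation p = 0.2, adjusted 0.2). Parts of the exons of Foxo1, and of Taf4, Taf3 and Sall4 named here, overlap a gene on the other strand, whose reads cannot be told apart without strand. Foxo1 fell too, by 0.47 on the log2 scale (limma adjusted p = 0.00788).

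Nobox over Lhx8, the other homeodomain factor, was 3.40, 3.64 and 3.42 in Nat10 cKO and 3.11, 3.07 and 3.01 in WT oocytes. Figla over Nobox was 0.156, 0.154 and 0.165 in Nat10 cKO and 0.191, 0.192 and 0.208 in WT oocytes. These log2 ratios differed by 0.19 and -0.32, each without overlap (exact permutation p = 0.1, adjusted 0.12), and none of the 6 pairs passed a threshold of 0.05. No adjusted p over the 6 pairs could fall below 0.1.

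**Figure D4:**
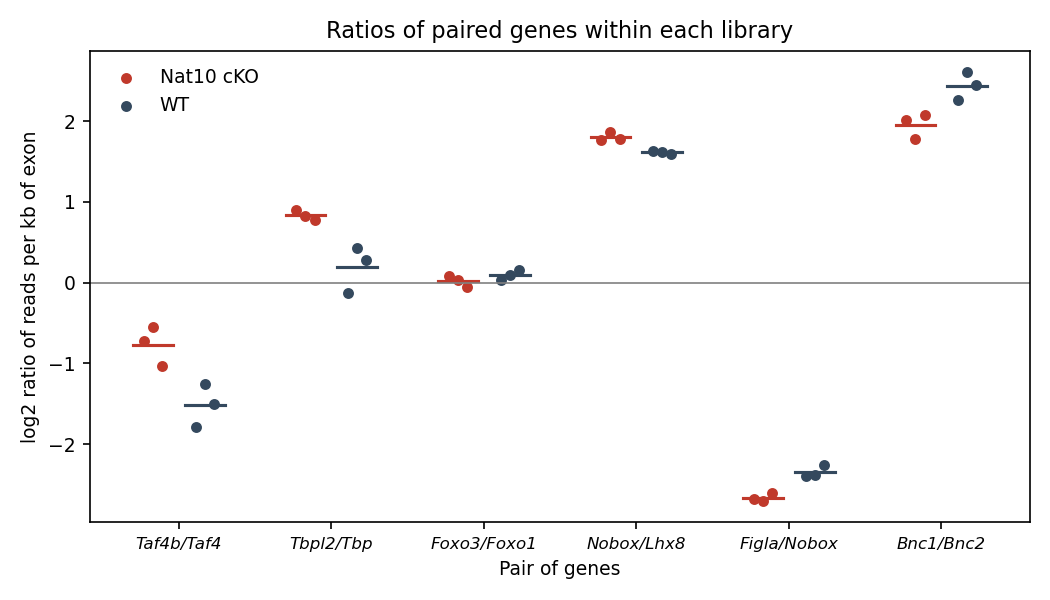
log2 ratio of reads per kilobase of exon for 6 pairs of genes, with 1 point per library and a bar at the mean of 3, Nat10 cKO left of WT. The genotypes overlap for Foxo3/Foxo1 and for none of the other 5 pairs.

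Over the 6 libraries, the log2 levels of Nobox, Lhx8, Figla and Tbpl2 had Pearson correlations of 0.953 to 0.996 with each other, and Foxo3 and Bnc1 one of 0.985. Taf4b was less alike, at 0.645 with Nobox and -0.360 with Bnc1. All points share the genotype difference and the library scaling, so these values describe the split between genotypes. The gene with the highest correlation among 8504 genes of at least 10 CPM was Napa for Nobox (0.9999), B230219D22Rik for Lhx8 (0.9993), Fgf1 for Figla (0.997), Slc30a6 for Tbpl2 (0.996), Lars2 for Foxo3 (0.999), Twnk for Bnc1 (0.9993) and Chd1l for Taf4b (0.9993). A correlation above 0.95 was common, with 843 genes for Nobox, 755 for Foxo3, 519 for Bnc1 and 48 for Taf4b.

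Genes known to be lowered in mouse ovaries without these factors, or bound by them, were called in both directions. The counts for related genes stand beside 17.4% higher and 17.6% lower over all tested genes, or 11.4 to 17.8% higher and 11.3 to 17.97% lower when 1 library was left out. Of 16 target genes tested, 6 were higher, 5 lower and 5 not called in Nat10 cKO oocytes, with a median log2 change of 0.06. The 4 most abundant, which encode zona, secreted and cytoplasmic lattice proteins, were all called higher, Bmp15 least firmly. Zp2, a zona gene activated by FIGLA, stood at 5626 ± 948 CPM in Nat10 cKO and 2883 ± 121 CPM in WT oocytes (SD, n = 3), a log2 change of 0.95. Padi6, the peptidylarginine deiminase of the lattices, changed by 0.70. Gdf9 and Bmp15, the secreted growth factors downstream of NOBOX, changed by 0.36 and 0.26 (limma adjusted p = 0.00494 and 0.0422), and the libraries of Bmp15 overlapped. The call of Bmp15 was lost in edgeR (adjusted p = 0.0571) and in 5 of 6 fits that left out 1 library, all but that without Nat10 cKO replicate 3 (adjusted p 0.00828 to 0.152). It was also lost with the replicate number as a block, as deposited and on the shares (limma adjusted p = 0.0574, 0.367 and 0.896). Fgf8, Oog1, Oosp1 and Rfpl4 were among the 5 targets called lower, with log2 changes of -0.71, -0.63, -0.53 and -0.43. As deposited, 1 target was higher and 0 lower, against 6.58% and 1.39% of all tested genes. On the shares, 2 were higher and 5 lower, against 5.60% and 16.5%.

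Of 26 partners and general factors in the table, 24 were tested: 3 were higher, 9 lower and 12 not called, with a median of -0.02. Among the most abundant, Taf9b, a TFIID subunit, was higher (0.48, limma adjusted p = 0.00646), while Gtf2a1, the TFIIA subunit that works with TBPL2, and Taf3 were lower (-0.53 and -0.44). Taf3 lost its call without Nat10 cKO replicate 1 or 2 (adjusted p = 0.0511 and 0.0517). Taf7 averaged 353 CPM in either genotype, with a log2 change of -0.0031 (limma adjusted p = 0.980). Leaving out Nat10 cKO replicate 1 left 4 lower, and the number higher was 1 without WT replicate 1 and 5 without WT replicate 2. As deposited 0 were higher or lower, against 6.58% higher and 1.39% lower over all tested genes. On the shares 0 were higher and 7 lower, against 5.60% and 16.5%.

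Of 19 genes around FOXO signalling, 0 were higher and 4 lower, with a median of -0.11. Foxo1 was among the 4. The abundant members Ywhae and Ywhaz, 14-3-3 genes whose proteins hold FOXO factors in the cytoplasm, and Kit, the receptor that starts this pathway in oocytes, had changes of -0.07, 0.12 and 0.18 and did not pass, although Kit did without WT replicate 2 (adjusted p = 0.0277). The number lower was 2 without Nat10 cKO replicate 1, and 1 gene was called higher without WT replicate 2. As deposited 0 were called either way, against 6.58% higher and 1.39% lower over all tested genes. On the shares 0 were higher and 4 lower, against 5.60% and 16.5%. Of 14 other oocyte regulators, 3 were higher and 6 lower, with a median of -0.22. The abundant Sub1, Sall4 and Dynll1 were called lower (-0.26, -0.31 and -0.24), each with a positive change as deposited. Without a filter all 3 calls were lost (adjusted p = 0.0913, 0.0642 and 0.118). They also depended on single libraries: Sub1 lost its call in 5 of 6 fits without 1 library (all but WT replicate 2), Sall4 in 4 (all but WT replicate 3 and Nat10 cKO replicate 3) and Dynll1 in 4 (all but WT replicate 2 and Nat10 cKO replicate 3). Dynll1 also missed the threshold with library sizes only, with the replicate number as a block and on the shares (limma adjusted p = 0.0583, 0.0661 and 0.0812). The imprint protector Zfp57 had a change of 0.13 and did not pass. The number lower was 3 without WT replicate 1 or 3 and 2 without Nat10 cKO replicate 1 or 2. As deposited 0 of these regulators were called either way, and on the shares 0 were higher and 4 lower. The shares of all tested genes under these scalings are those given above for FOXO signalling.

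**Figure D5:**
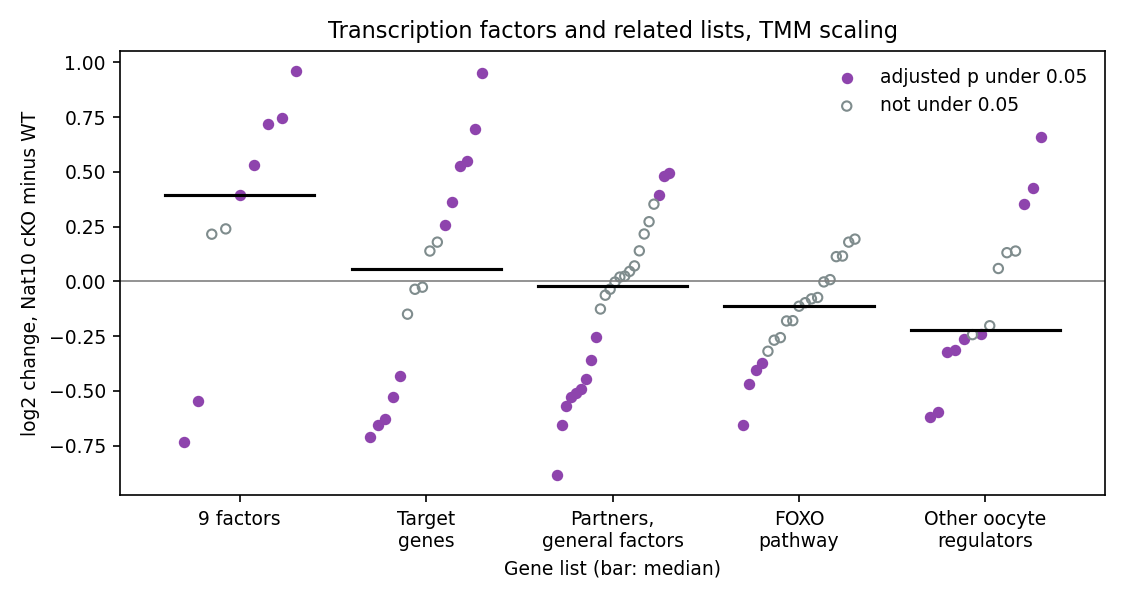
log2 change of each tested gene, Nat10 cKO minus WT, for the 9 factors and 4 related lists under TMM scaling; filled points passed limma at an adjusted p under 0.05 and bars are medians. The median is 0.39 for the 9 factors, which include Sohlh1 with its filter limit, and between -0.22 and 0.06 for the lists.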

How the data were processed

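STAR 2.7.10a, Trim Galore 0.6.7 and featureCounts, with mm10, are named in the submitters' processing notes. Settings, annotation and strand handling are not stated (not given in the sources used here). Each library has a column; the authors deposited whole-read counts for WT replicate 1 and, for the other 5 libraries, a scaled signal: reads times a factor of 1.38 and 0.945 (WT replicates 2 and 3) or 0.920, 0.908 and 0.932 (Nat10 cKO replicates 1 to 3). After division by a column's smallest value, 100% of its values were whole to within 0.001. ERCC (0.2 µl of a 1:1000 dilution) was added per the series' design text; its rows were not analysed here.

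As 5 columns are scaled, limma 3.58.1 (trended, robust, two-sided) on log2(CPM + 1) with TMM factors was the test across all genes after filterByExpr (minimum count 10), which kept 18353 genes; edgeR 4.0.16 (quasi-likelihood) and DESeq2 1.42.0 on recovered reads were alternatives, run in R 4.3.3; matplotlib 3.10.9, pandas 2.3.3 and numpy 2.4.6 under Python 3.11.15 did the rest. The fits were tested on simulated data. Same-numbered libraries did not pair (correlations of deviations 0.0789, 0.0747 and -0.120).

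GENCODE M21 (GRCm38, the assembly of mm10) gave positions and exon lengths; 53292 of 55291 symbols matched. Members and lists were chosen with earlier results of these data known. Named genes were the 9 factors, Nat10, their pair partners, the 4 most abundant genes of each of 4 lists (targets, partners and general factors, FOXO pathway, other oocyte regulators), called genes of these lists changed at least 2-fold, and the most alike gene of each factor with at least 10 CPM. Genes of the cell marker lists, and the targets Fgf8, Oog1, Oosp1 and Rfpl4, were named outside this rule, after their values were seen.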

Additional observations from a re-analysis of the deposited data

How the results depend on the processing

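Every alternative kept the direction of all 9 factors. Values as deposited called 1462 genes in place of 6422, 1207 higher and 255 lower in place of 3190 and 3232, with 1 factor higher and 0 lower. Shares of reads times the deposited factor called 4055 genes, 1027 higher and 3028 lower, with 2 factors higher. Leaving out 1 library gave 4308 to 6683 genes called, 2107 to 3431 higher and 2201 to 3334 lower, and 4 to 6 factors higher with 2 lower; the cause was not tested. With the replicate number as a block, 5 factors were higher and 2 lower, as without it, and 6234 genes were called. Sohlh1, with the filter limit given above, is among the factors higher in each of these counts. As deposited, changes reversed in sign for Bnc2 (0.10), Dynll1 (0.12), Sall4 (0.0477), Sub1 (0.10), Ywhae (0.29) and Taf7 (0.36), and on shares times the factor for Kit (-0.0382), Tbp (-0.0770), Ywhaz (-0.10) and Zfp57 (-0.0867). Taf7, at -0.0031 in the fit reported, was also above 0 with median-of-ratios factors (0.0044), library sizes only (0.0270), no filter (0.0158) and DESeq2 (0.0047), and in 3 of 6 fits that left out 1 library (-0.0153 to 0.0208 over the 6). Sohlh1, with 32 reads in all WT libraries, varied between 0.66 and 1.29 when 1 library was left out.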
